A study of Homo sapiens with 6 samples.

Results

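The AP-1 genes FOS, FOSB, FOSL1, FOSL2, JUN, JUNB, JUND and ATF3 were examined with EGR1 and IER3, a set of genes known for fast responses to serum and growth factors. They were found by symbol in a deposited table of gene levels, which holds 22933 gene symbols in all, and each of the 10 genes stood at 1 locus. RNA-Seq had been performed on PC-3 cells, an established prostate adenocarcinoma line from a bone metastasis. All cells carried the reverse tetracycline transactivator rtTA2, delivered by a pRetroX-Tet-On-Advanced retrovirus and kept by G418 selection, and all were given 300 ng/ml doxycycline (Dox) for 4 h before collection. The control group, tdTom, had received a second retrovirus, pRetroX-Tight-pPGK-tdTomato. The group labelled TTP-tdTom had received pRetroX-Tight-TTP-pPGK-tdTomato, in which a Dox-responsive promoter drives TTP (tristetraprolin). Cells of both groups were selected for tdTomato, and 3 samples of each were sequenced. The table holds 1 FPKM value per group and gene (fragments per kilobase, corrected for the number mapped; a level per length), so the spread between the samples of a group is not known. No difference given here was therefore tested, and a ratio compares the group values of these samples only. As the RNA was extracted from whole cultures, less RNA per cell and fewer cells that express a gene cannot be told apart.

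AP-1 is a family of dimeric transcription factors whose subunits pair through leucine zippers. JUN proteins form dimers among themselves or with FOS proteins, whereas FOS proteins need a JUN partner, and ATF3 pairs with JUN proteins or with itself. EGR1 is a zinc finger factor that binds GC-rich sites. IER3 is not a transcription factor but a short-lived protein induced early by stress and growth signals. Many of these genes are transcribed within minutes of stimulation and give short-lived mRNAs, and AU-rich elements in their 3′ untranslated regions (3′UTRs) are known to shorten mRNA life. TTP, the product of the ZFP36 gene, binds such elements, above all repeats built on the pentamer ATTTA (written as DNA), and recruits the machinery that removes poly(A) tails.

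The 3′UTRs of the 10 genes were searched on the transcribed strand for the pentamer ATTTA, for the heptamer TATTTAT, which contains it, and for the nonamer TTATTTATT, which contains both. Overlapping copies were counted, and where GENCODE release 29 (GRCh38) gives a gene several 3′UTRs, the longest was used. Windows of 30 bases are shown 5′ to 3′ for the gene with the most heptamers, IER3, and for members of each family whose levels are compared with it. Capitals mark the heptamer, or the pentamer in JUNB and EGR1, which have no heptamer. Each window lies in the 3′UTR, within the last exon.
IER3, bases 425 to 454 after the stop codon, chr6:30743648-30743677, minus strand: taattaaTATTTATatgTATTTATgtacgt
IER3, bases 473 to 502, chr6:30743600-30743629, minus strand: tgtgtacgtaaTATTTATtttaacttatgc
IER3, bases 536 to 565, chr6:30743537-30743566, minus strand: aggtctcttggTATTTATtgagctttgtgg
FOS, bases 635 to 664, chr14:75282059-75282088, plus strand: gtgtttttaattTATTTATtaagatggatt
FOSL1, bases 585 to 614, chr11:65892272-65892301, minus strand: gagggcagctgcTATTTATtttcctaaaga
FOSL2, bases 3906 to 3935, chr2:28416354-28416383, plus strand: catttattttatTATTTATtttaaatgttt
JUN, bases 1227 to 1256, chr1:58780819-58780848, minus strand: tttgcttatgaaTATTTATaacagcattct
ATF3, bases 1148 to 1177, chr1:212620703-212620732, plus strand: gaaaatattactTATTTATcctagtattcc
JUNB, bases 244 to 273, chr19:12793059-12793088, plus strand: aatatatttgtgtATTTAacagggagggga
EGR1, bases 982 to 1011, chr5:138469063-138469092, plus strand: actgaaaatgtaaATTTAtaaatatattca

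The heptamer occurred 4 times in the 3′UTR of IER3 (903 bases), where the copies begin at bases 432, 442, 484 and 547 after the stop codon. FOS (806 bases) and FOSL2 (4864 bases) had 2 copies each. FOSB, FOSL1, JUN, JUND and ATF3 had 1 copy, and JUNB and EGR1 had 0. The nonamer was present in FOS and FOSL2 only, which is 2 of the 10 genes, against 9.45% of the 11201 expressed gene symbols that had a 3′UTR in the annotation. At least 1 heptamer was present in 8 of the 10 genes, against 36.2% of these symbols, and 4 or more copies were present in 3.53%. Per kilobase the pentamer was densest in IER3, with 6.64 copies, and in FOS, with 6.20 copies, and sparsest in EGR1, with 0.81 copies.

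At ZFP36 itself the FPKM was 5.56 in tdTom and 5.54 in the group labelled TTP-tdTom, so the locus of the transgene's own gene showed no rise. Whether reads from the TTP retrovirus could count towards ZFP36 was not tested, and every direction below rests on the group labels. Of epithelial markers, KRT8 (20.9 in tdTom and 19.1 in TTP-tdTom), KRT18, KRT19 and EPCAM were present, whereas CDH1 was at 0.119 and 0.390. Of prostate luminal genes, KLK2 lay below an FPKM of 1 in both groups, KLK3 was at 1.12 in tdTom and 0.681 in TTP-tdTom, and TMPRSS2 was at 1.78 and 2.53. None of 4 leukocyte and 3 endothelial markers reached 1. Of 3 fibroblast markers, COL1A1 was at 4.34 in tdTom and 4.56 in TTP-tdTom, COL1A2 was listed at 0 and at 1.38, and DCN stayed below 1. The part of these in the results was not tested. Loci with no gene symbol, 92.6% of the 406165 loci in the table, had a median FPKM of 0.497 in tdTom and 0.675 in TTP-tdTom. FPKM values of this size were therefore common where no gene is annotated, and genes below 1 in both groups were left out of the counts. Depth behind each value is unknown, because no counts are given.

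FOSL1 stood far above all the others, IER3, JUNB, JUN and FOSL2 lay between 13.95 and 36.4 in tdTom, JUND was at 1.72 and ATF3 at 0.773, and FOS, FOSB and EGR1 were lower still. In tdTom the order from the top was FOSL1, IER3, JUNB, JUN, FOSL2, JUND, ATF3, FOSB, FOS and EGR1. In TTP-tdTom JUNB stood before IER3, FOSL2 before JUN, and FOS before FOSB. JUNB was 1.03 times IER3 there, a gap whose size cannot be set against any spread between samples.

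**Figure D1:**
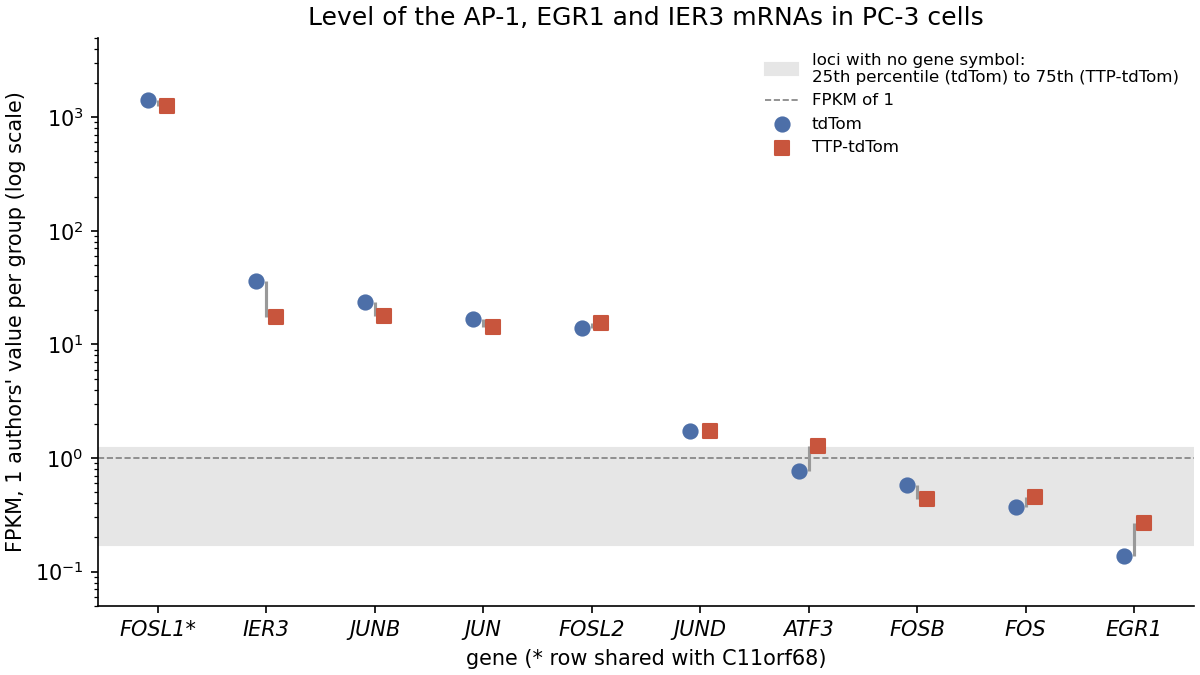
FPKM of the 10 genes in the tdTom and TTP-tdTom groups on a log axis, 1 point per gene and group (the deposited group value, with no replicate error). The shaded band runs from the 25th percentile of loci with no gene symbol in tdTom (0.172) to their 75th percentile in TTP-tdTom (1.22). FOSL1 lies highest in both groups (1404 and 1261), FOS, FOSB and EGR1 lie below 1 in both, and the points of IER3 lie 2.11-fold apart.

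FOSL1 encodes FRA-1, a FOS protein that lacks the strong activation domain of FOS and is known for high levels in invasive carcinoma lines. The FPKM of its locus was 1404 in tdTom and 1261 in TTP-tdTom, or 89.8% of the control. Only 33 gene symbols had a higher level in tdTom, and 99.8% had a lower one. Its log2 ratio of TTP-tdTom over tdTom was -0.16 as deposited and turned to 0.09 when ratios were centred on the median of symbols that reached an FPKM of 1 in each group (-0.24), so the direction of this gene depends on the scaling. The row joins FOSL1 with C11orf68, an adjacent gene, over 11:65656982-65686531 (GRCh37), and the value is that of the joined row. A separate row for C11orf68 over the same span was at 0.599 in tdTom and 1.86 in TTP-tdTom.

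FOSL2, which encodes FRA-2, was at 13.95 in tdTom and 15.4 in TTP-tdTom, or 110% of the control (2:28615682-28640282). FOSL1 exceeded it 100.7 times in tdTom and 81.8 times in TTP-tdTom. The other FOS genes were far lower. FOS, the founding immediate early gene of the family, was at 0.367 in tdTom and 0.456 in TTP-tdTom (14:75745481-75748937). FOSB was at 0.574 and 0.435 in the same order (19:45971253-45978437). FOSL2 was 38.0 times FOS and 24.3 times FOSB in tdTom. In tdTom 59.5% of the loci with no gene symbol had a higher FPKM than FOS and 44.8% a higher FPKM than FOSB, so neither gene stood clear of unannotated loci. At the dose and time sampled, no change could therefore be read for FOS or FOSB, and FOS was 1 of the loci to which the deposited status gave no test, as EGR1 was.

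Among JUN genes the order was JUNB, JUN and JUND in both groups. JUN, the subunit with the strongest transactivation in the family, was at 16.8 in tdTom and 14.2 in TTP-tdTom, or 84.5% of the control (1:59245552-59249905). JUNB, a weaker activator that can restrain JUN, was at 23.8 and 17.9, or 75.0% (19:12901164-12906299). JUND was at 1.72 and 1.75, or 102% (19:18390563-18392432). JUNB exceeded JUN 1.42 times in tdTom and 1.26 times in TTP-tdTom, and JUN exceeded JUND 9.79 and 8.13 times. The log2 ratios of JUN (-0.24), JUNB (-0.41) and JUND (0.02) all lay within 1.5 times, and on centring JUN came to -0.0013.

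ATF3, a stress-induced partner of JUN proteins that often represses transcription as a homodimer, was the one AP-1 gene that was higher by at least 1.5 times. Its FPKM was 0.773 in tdTom and 1.27 in TTP-tdTom, a 1.64-fold difference (1:212738676-212794119). The gene reached an FPKM of 1 only in TTP-tdTom, so it entered the counts through the group in which it was high. With 1 added to both values it no longer passed 1.5 times. In tdTom 33.0% of loci with no gene symbol had a higher FPKM than ATF3, and in TTP-tdTom 23.6% did. The median of those loci was itself higher in TTP-tdTom, as given above, and the part of that in the ATF3 value was not tested.

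EGR1 was the lowest of the 10 genes, at 0.138 in tdTom and 0.269 in TTP-tdTom (5:137801181-137805004). The 1.94-fold ratio rests on values below those of 77.9% and 75.4% of the loci with no gene symbol, in that order. Adding 1 to both values brought its log2 ratio from 0.96 to 0.16. Its relative EGR2 was 10.4 times higher in tdTom, at 1.43, and 6.01 times higher in TTP-tdTom, at 1.61.

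As a ratio under the deposited scaling, IER3 differed most of the genes that reached an FPKM of 1, whereas on centring ATF3 (0.95) lay further from 0 than IER3 (-0.83). It was at 36.4 in tdTom and 17.3 in the group labelled TTP-tdTom, which is 47.5% of the control and 2.11-fold lower (6:30710976-30712327). IER3 was the only one of the 10 genes that was lower by at least 1.5 times under the deposited scaling, and also by at least 2 times, and its log2 ratio was -1.02 on rescaling to equal sums. FLOT1, the one named gene within 5 kb, lies 514 bases away and was at 39.1 and 31.7. The 9 unnamed loci within 5 kb of IER3 reached at most 2.39, far below the IER3 level in either group.

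**Figure D2:**
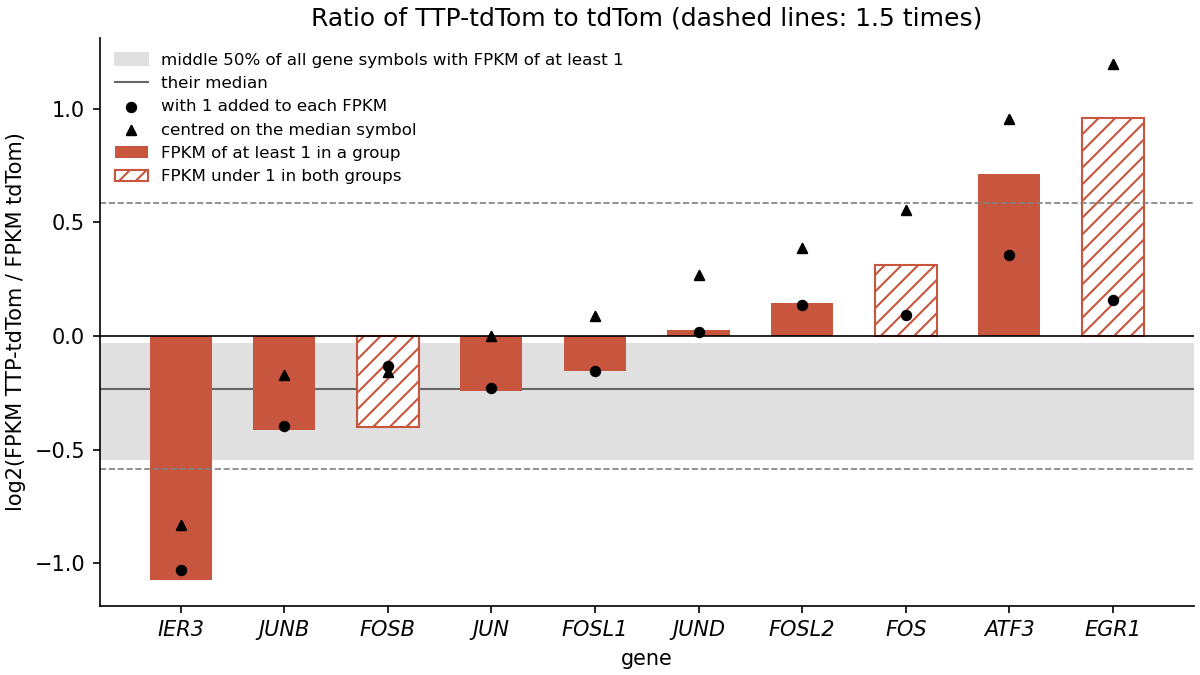
Log2 ratio of FPKM in TTP-tdTom over tdTom for each of the 10 genes, as bars, with 1.5 times marked by dashed lines and the middle 50% of expressed gene symbols shaded. Circles give the ratio with 1 added to each FPKM and triangles the ratio centred on the median symbol. IER3 lies at -1.07, outside the shaded range on the low side, ATF3 lies at 0.71 on the high side, and the hatched bars for FOS, FOSB and EGR1 rest on FPKM below 1 in both groups.

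Of the 10 genes 7 reached an FPKM of 1 in either group, and of these 4 were lower and 3 higher in TTP-tdTom. That is 57.1% lower, whereas 77.7% of all 13320 symbols that passed the same filter were lower. Lower by at least 1.5 times was 1 of the 7 (IER3), or 14.3%, against 23.4% of all symbols. Lower by at least 2 times was the same gene, against 9.54%. Higher by at least 1.5 times was 1 of the 7 (ATF3), against 5.08%. The other 5 lay within 1.5 times. The median log2 ratio was -0.16 over the 7 genes and -0.23 over all symbols above 0 in both groups, for which the middle 50% ran from -0.54 to -0.03.

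A ratio of 2 low levels varies more than a ratio of high ones, so each gene was also placed among symbols of like mean FPKM. Among 4801 symbols with a mean of 10 to 100, 8.66% had a lower log2 ratio than IER3, and 4.60% had a higher one than FOSL2. JUN and JUNB lay inside the middle of that range, with 55.1% and 36.3% of symbols below them. Among 7042 symbols with a mean of 1 to 10, 2.75% had a higher ratio than ATF3. That place depends on the cut, because the mean of ATF3 was 1.02 and passed 1 only through its value in TTP-tdTom. In the range below, means of 0.1 to 1, the upper quartile was 0.68 and the 95th percentile 1.86, and ATF3 was at 0.71. FOSL1 had 60.8% of 668 symbols below it at means of 100 or more. Among 7453 symbols with a mean of 0.1 to 1, the middle 90% ran from -1.30 to 1.86 and held FOS, FOSB and EGR1.

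**Figure D3:**
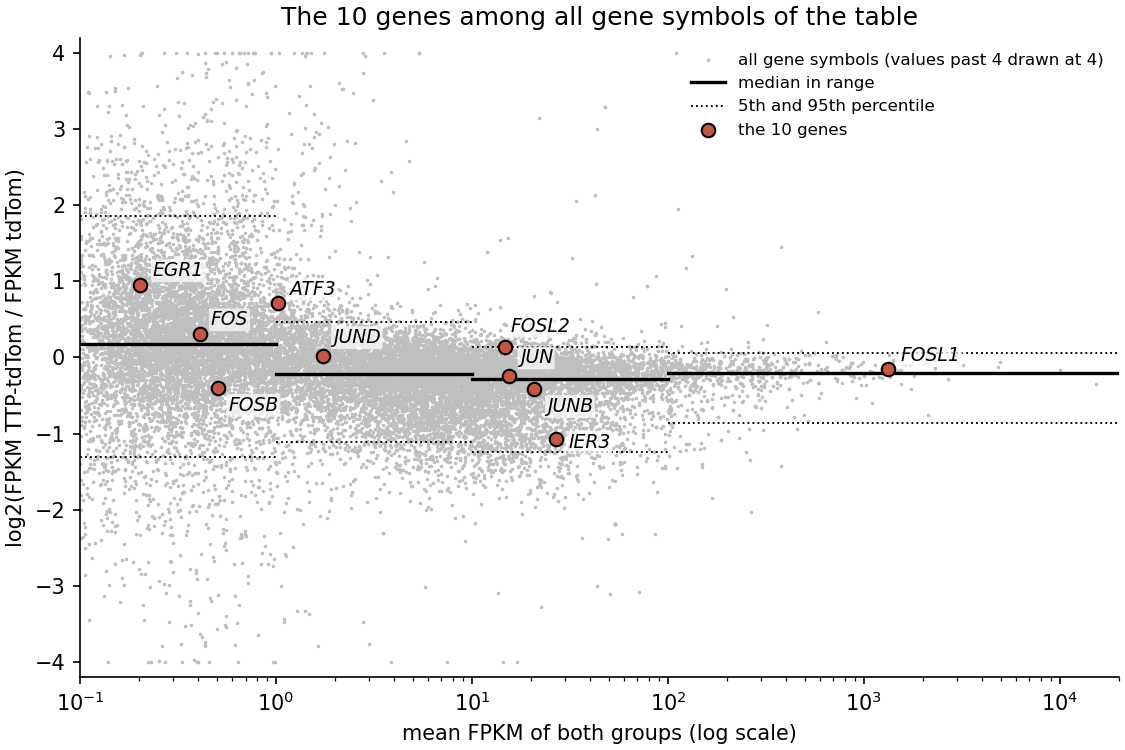
Log2 ratio of TTP-tdTom over tdTom (y axis) against mean FPKM of both groups on a log axis (x axis), with gene symbols as small grey points and the 10 genes marked by name. Lines give the median and the 5th and 95th percentiles in each range of level, and values past 4 are drawn at 4. IER3 sits low among symbols of its level, with 8.66% of them below it, while EGR1, FOS and FOSB sit where the grey points spread most.

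The 10 genes were then set beside their heptamer counts. Over all expressed symbols the median log2 ratio was -0.17 for 7033 symbols with no heptamer, -0.36 for 2296 with 1, -0.52 for 909 with 2 and -0.63 for 810 with 3 or more. The 3′UTRs also lengthened over these classes, from a median of 922 bases to 4461 bases, and their median AU content went from 54.2% to 63.7%. The parts of copy number, length and AU content were not tested apart. The first IER3 window above holds 2 of its 4 copies. A log2 ratio below 0 was found in 89.3% of the last class and in 77.7% of all symbols that passed the filter. The upper quartile of symbols with no heptamer was also below 0 (-0.005), so the direction of IER3 does not place it in any class. Of the last class 19.6% lay below IER3. The 3′UTR of IER3 was much shorter than is usual in that class, and its AU content was 45.4%. FOSL2, with 2 heptamers and 1 nonamer, was at 0.14, above the upper quartile of its class (-0.22). ATF3 (0.71) and JUND (0.02), with 1 copy, lay above the upper quartile of theirs (-0.13), and FOSL1 (-0.16) and JUN (-0.24) lay inside it. JUNB, with none, was at -0.41, below the lower quartile (-0.37) of symbols with no copy. The ratios of these genes thus did not follow the order of their heptamer counts. In the shortest annotated 3′UTR IER3 kept its 4 copies, whereas FOS, FOSB, FOSL1 and ATF3 had 0, and which 3′UTR the cells used was not analysed here.

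**Figure D4:**
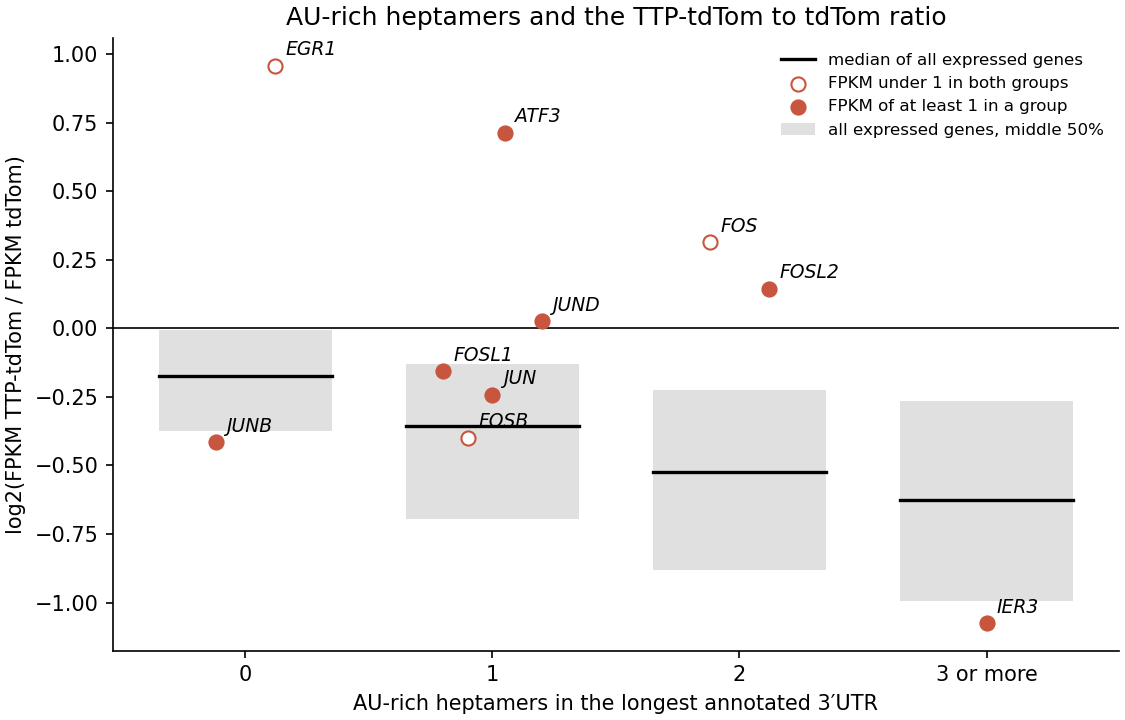
Log2 ratio of TTP-tdTom over tdTom (y axis) against the number of TATTTAT heptamers in the longest 3′UTR (x axis), with the named genes as points and, for all expressed symbols of each copy class, the median as a line and the middle 50% as a box. Open points had an FPKM below 1 in both groups. IER3, with 4 copies, lies at -1.07 and the median of symbols with 3 or more is -0.63, while FOSL2 with 2 copies lies above 0.

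Promoters were read from RefSeq (GRCh38.p14), from 250 bases before to 50 bases after the start, and 8 of the 10 genes had 9 windows, since ATF3 has 2. FOSL1 and IER3 had no entry in the set of promoters that was read, although RefSeq transcripts of both are named at their loci. The search, on both strands, covered the AP-1 site TGACTCA, the cyclic AMP response element TGACGTCA, the core TGACG that overlaps it, the CArG box bound by serum response factor, the EGR site GCGGGGGCG, the GC box GGGCGG and the TATA box TATAAA. Windows are shown for the letters that members of the set could bind, and for the CArG boxes of EGR1, with the match in capitals.
EGR1, chr5:138465364-138465393, plus strand, match beginning 105 bases before the start: gccggtcctgCCATATTAGGgcttcctgct
EGR1, chr5:138465386-138465415, plus strand, match beginning 83 bases before the start: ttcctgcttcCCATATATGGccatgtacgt
FOSL2, chr2:28392851-28392880, plus strand, match beginning at base 5 of the transcript: tgccattgtagTGACTCAtctcgggcagag
JUND, chr19:18281804-18281833, minus strand, match beginning 200 bases before the start: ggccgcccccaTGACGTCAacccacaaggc

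The AP-1 site was found in the window of FOSL2 only, and in 4.95% of all 35116 promoter windows. The cyclic AMP response element was found in JUND only, and in 1.85% of all windows. Within these windows EGR1 alone had CArG boxes, 2 of them, against 1.29% of windows with any. Sites further upstream and sites with other letters were not searched. A gene without a match here may therefore still have such a site. None of the 9 windows held the EGR site, which 5.07% of all windows hold. The letters TATAAA were found in FOS, FOSB and JUNB, with first bases at -33, -30 and -31 from the start. They also stood in 1 window of ATF3, but at -230, and in 11.5% of all windows at any position. The GC box was found in 6 of the 8 genes (45.0% of all windows) and the core TGACG in 7 (24.6%). Letters in a window describe the sequence and do not show binding, and no FPKM difference is tied to them here.

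Genes listed as relatives, partners, regulators or targets of AP-1 and EGR1 were taken from 7 lists, 107 genes in all. Of these 86 passed the filter, and 72 of them (83.7%, against 77.7% of all symbols) were lower in TTP-tdTom. Lower by at least 1.5 times were 31 (36.0%, against 23.4% of all symbols), and higher by that much were 2 (2.33%, against 5.08%). The 2 that were higher were BATF2 and TRIB1. The median log2 ratio of the 86 was -0.37. With ratios centred in the same way as for FOSL1, 53 of the 86 were lower and 33 higher. By construction, centring leaves as many of the symbols that gave the median below 0 as above it. The 77.7% is therefore not the share to set beside centred counts, here or for each list below.

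**Figure D5:**
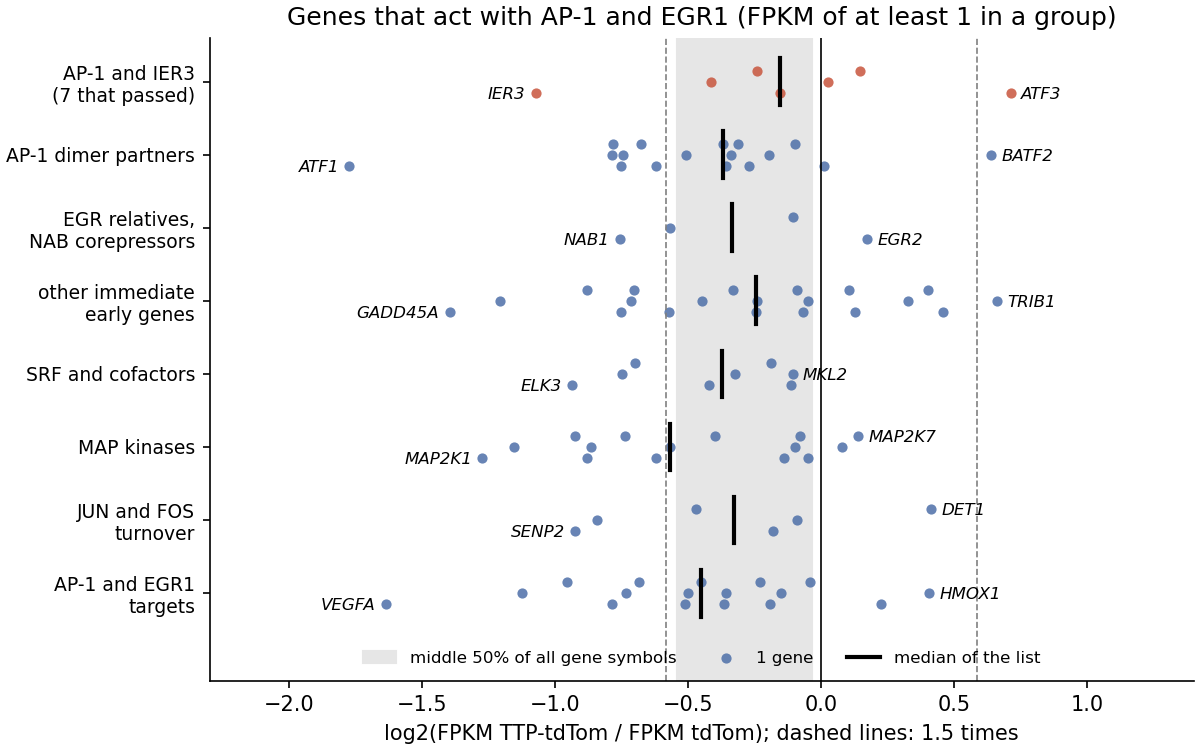
Log2 ratio of TTP-tdTom over tdTom for the 7 AP-1 and IER3 genes that passed the filter and for each gene of the 7 lists that did, 1 point per gene, with the median of each list as a bar and the middle 50% of all symbols shaded. The MAP kinase list has the lowest median, at -0.57, and ATF1, at -1.77, is the lowest single gene.

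The list named AP-1 dimer partners was drawn by family, from the ATF, CREB, MAF, BATF and C/EBP families with JDP2. Whether each gene on it, ATF1 included, encodes a partner of JUN or FOS proteins was not checked. The list had 17 of 24 genes past the filter. Of these 15 were lower (77.7% of all symbols were), 7 of them by at least 1.5 times (23.4% of all symbols), and the median was -0.37. On centring 13 were lower and 4 higher. ATF1, a CREB relative that binds cyclic AMP response elements, was at 37.2 in tdTom and 10.9 in TTP-tdTom, or 29.2% of the control. ATF2, which pairs with JUN, was at 75.7 and 44.0. BATF2 was at 1.14 and 1.78.

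EGR relatives and the NAB corepressors had 4 of 6 genes past the filter, with a median of -0.34. Of the 4, 3 were lower (77.7% of all symbols were), 1 of them by at least 1.5 times (23.4% of all symbols). On centring 2 were lower and 2 higher. NAB1, which binds EGR proteins and blocks their activity, was at 5.99 in tdTom and 3.54 in TTP-tdTom, and EGR2 was the highest by ratio, with a log2 value of 0.17. EGR3 and EGR4 stayed below 1 in both groups, as EGR1 did. Other immediate early genes had 20 of 25 past the filter, 14 lower and 6 higher, with a median of -0.25, where 77.7% of all symbols were lower. On centring 11 were lower and 9 higher. CSRNP1, 1 of the 6 counted as higher before centring, was at 0.837 in tdTom and 1.10 in TTP-tdTom, and passed the filter only through TTP-tdTom. GADD45A, a growth arrest gene, was at 41.8 and 15.9, and TRIB1, a pseudokinase gene, was at 10.8 and 17.1. ID1, an inhibitor of helix-loop-helix factors, had the highest level, 81.4 in tdTom and 111.8 in TTP-tdTom. Of these 20 genes 6 were lower by at least 1.5 times, against 23.4% of all symbols.

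Upstream of the set, serum response factor and its cofactors had all 8 genes past the filter and all 8 lower, 3 by at least 1.5 times, with a median of -0.37, where 77.7% of all symbols were lower and 23.4% lower by at least 1.5 times. On the centred scale, where 0.24 is added to each log2 ratio, 5 of the 8 were lower and 3 higher, among them MKL2, the highest of the list at -0.11 before centring. ELK3, a ternary complex factor, was at 20.9 in tdTom and 10.9 in TTP-tdTom, and its relative ELK4 was at 55.7 and 34.2. The MAP kinases that act on AP-1 had 15 of 17 past the filter, 13 of them lower and 7 by at least 1.5 times, with a median of -0.57, beside the same shares of all symbols. On centring 9 were lower and 6 higher. MAP2K1, which encodes the kinase MEK1, was at 7.37 and 3.05, or 41.3% of the control. MAP2K7, which activates JNK, was at 7.88 and 8.68.

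Genes of ubiquitin ligases and related enzymes that act on JUN and FOS proteins had 7 of 8 listed symbols matched and 6 past the filter, 5 lower and 1 higher, with a median of -0.33, where 77.7% of all symbols were lower. On centring 3 were lower and 3 higher. SENP2, a SUMO protease, was at 22.3 in tdTom and 11.7 in TTP-tdTom, ITCH, a ligase for JUN and JUNB, was at 40.6 and 22.6, and DET1, the 1 counted as higher, was at 0.914 and 1.22 and so passed the filter only through TTP-tdTom. AP-1 and EGR1 target genes had 17 of 20 past the filter, 15 lower and 6 by at least 1.5 times, with a median of -0.45, where 77.7% of all symbols were lower and 23.4% lower by at least 1.5 times. On centring 11 were lower and 6 higher. VEGFA, an angiogenic growth factor, was at 10.7 and 3.45, or 32.2% of the control. HMOX1, which degrades haem, was at 4.59 and 6.09, and VIM, the mesenchymal filament gene, was at 1159 and 899. VEGFA was thus further from its control level than any of the 10 genes was on the low side.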

How the data were processed

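Total RNA of 6 samples, 3 per group, was made into strand-specific libraries (NuGen Ovation Encore Complete) and sequenced in paired-end runs on an Illumina NextSeq 500. Per the submitters' processing notes and the study's methods, the authors used TopHat2 2.0.13 with Hs37D5 (GRCh37 with decoy sequence) and Cufflinks 2.2.1. The deposited table holds the authors' FPKM, 1 pooled value per group and locus. Its columns of fold change, test statistic, p-value, q-value and significance are the authors' own comparison and were not used. Coordinates are those of assembled loci.

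Samples were grouped by their labels. A symbol was represented by the row with the most RefSeq names, then the highest summed FPKM. The log2 ratio was TTP-tdTom over tdTom on plain FPKM, counts used an FPKM of at least 1 in either group, and a call was 1.5 times. With 1 value per group no test, error or interval was computed, although tests across samples had been planned for values per sample. The number of fragments behind each locus value is unknown. Named were the 10 genes, ZFP36 and, per list, the lowest and highest ratio and the highest level in tdTom; neighbours, markers and EGR3 and EGR4 were named beside them, and some genes that this rule names are not reported here. The members and lists were chosen with earlier results of these data known. Alternatives were pseudocounts of 0.1 and 1, centring, rescaling, other filters, a fold of 2, other locus choices and the shortest 3′UTR. Python 3.11.15, numpy 2.4.6, pandas 2.3.3 and matplotlib 3.10.9 were used. The ratio and motif steps were tested on simulated data.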

Additional observations from a re-analysis of the deposited data

Results flagged for a closer look

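Beside JUN and JUND stood 2 loci with no gene symbol that had signal in TTP-tdTom and were listed at 0 in tdTom, and neither enters a comparison above. The locus near JUN (1:59244264-59244547, GRCh37) was at an FPKM of 2.06 in TTP-tdTom. The locus near JUND (19:18396340-18396535) was at 5.97. Over all 59 loci without a symbol within 5 kb of the 10 genes the medians were 0.641 in TTP-tdTom and 0.650 in tdTom. The opposite pattern was present too. A locus near JUND (19:18397065-18397867) was at 1.78 in tdTom and a locus near ATF3 (1:212735207-212735531) at 2.46, and both were listed at 0 in TTP-tdTom. No fold is given against a value listed at 0.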

How the results depend on the processing

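IER3 remained the 1 gene of the set that was lower by at least 1.5 times under every alternative run. The count of genes higher by at least 1.5 times, 1 as reported, was 0 with a pseudocount of 1, 0 where both groups had to reach an FPKM of 1, 0 with an FPKM of at least 10 in either group, 0 at a fold of 2, and 2 with no filter (ATF3 and EGR1). The percent of all gene symbols lower by at least 1.5 times, 23.4 as reported, was 14.2 when centred on the median, which adds 0.24 to each log2 ratio, and 9.54 at a fold of 2. Rescaling to equal sums adds 0.052. The median log2 ratio of the set, -0.16 as reported, turned to 0.086 on centring. Of 60 single-gene ratios over 6 settings 59 moved by less than 1.5 times, the exception being EGR1 with a pseudocount of 1 (0.16). That count says little, because most of these outcomes were fixed in advance. The other locus choices could not move a ratio, since each gene stood at 1 locus. Centring and rescaling each add a constant smaller than 1.5 times. Only the pseudocounts could have moved a ratio that far. Heptamer counts were 0 in the shortest 3′UTR of FOS, FOSB, FOSL1 and ATF3. No paired analysis was possible because the deposited table holds 1 value per group, and leaving out single samples could not be run for the same reason. Low FPKM limits what can be read for FOS, FOSB and EGR1.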

Other observations

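Genes beside the AP-1 genes were also measured. PRDX2, a peroxiredoxin gene 1335 bases from JUNB, was at an FPKM of 58.3 in tdTom and 54.2 in TTP-tdTom. DRAP1, a transcriptional corepressor gene 173 bases from the FOSL1 locus, was at 368.1 and 337.1, and FIBP, on its other side, was at 35.7 and 30.9. CCDC85B, which shares the FOSL1 span, was at 32.9 and 32.97. The ratios of these 4 genes stayed within 1.5 times, whereas not all other named rows did. C11orf68, in the FOSL1 span, had a log2 ratio of 1.63 between 0.599 in tdTom and 1.86 in TTP-tdTom. FAM71A, beside ATF3, had 2 rows, at 0.286 and 0.635 and at 0.198 and 0.263. CTSW, beside FOSL1, had 2 rows, at 0.677 and 0.448 and at 0.473 and 0.506. LOC100131060, beside JUN, had 2 rows, 1 at 0.0591 in tdTom and 1.12 in TTP-tdTom and the other at 0.262 and 0.114. EGR1 had 0 other loci within 5 kb.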
